A study of Mus musculus with 6 samples.

Results

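The genes described here encode proteins that open or rupture the plasma membrane of a dying cell and channels that pass or sense extracellular ATP. They are the gasdermins Gsdmd and Gsdme, the rupture protein gene Ninj1, the ATP-gated channel genes P2rx7 and P2rx4, and the pannexin channel gene Panx1. They are listed by function, chosen with earlier results of these data known, and were found by Entrez ID. All 6 are among the 36528 gene IDs measured by RNA sequencing. The 6 libraries came from mouse HOXB-8 cells, a bone marrow myeloid progenitor line immortalised through the HOXB8 transcription factor, while the extraction notes call the cells iMACs. Of these, 3 are labelled Parental, Irf2 wild type, with a control guide RNA named Luc, and 3 are labelled IRF2_KO, knock-out lines made with the guide called Irf2 gRNA2. Irf2 encodes an interferon regulatory factor. Both groups carry the immortalised HOXB-8 background. No stimulus is named for either group, and only 1 guide sequence against Irf2 is named, so a guide's other effects and those of IRF2 loss cannot be told apart. The labels do not say whether lines are clones or whether each library had its own culture. The spread behind every p-value is therefore that among these libraries and may be technical.

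In pyroptosis, inflammatory caspases cut gasdermin D in its linker, and the freed amino-terminal part inserts into the plasma membrane as a pore. Gasdermin E is cut in the same way by an apoptotic executioner caspase. NINJ1 acts later, assembling in the membrane of a dying cell and tearing it open. P2X7 and P2X4 are cation channels opened by extracellular ATP, and P2X7 activation is a classical trigger of potassium efflux and the NLRP3 inflammasome in macrophages. Pannexin 1 forms the channel through which ATP leaves cells.

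The total count was 33422590 to 39925038 in the Parental libraries and 29070160 to 34051219 in the IRF2_KO libraries. Within a gene, levels are in CPM, counts scaled to the TMM-adjusted size of each library (counts per M reads). Between genes, they are in the authors' RPKM, which divides by gene length. Values are mean ± SD with n = 3 libraries per group unless given by library. Fold changes of IRF2_KO against Parental were tested over 13353 genes with edgeR's quasi-likelihood test, and a gene is called at an adjusted p under 0.05. This threshold was met by 47.2% of all tested genes, 23.6% higher and 23.6% lower, and the CPM ranges of the groups did not overlap in 54.0%. Irf2 transcript itself stood at 41.5 ± 0.787 CPM in Parental and 39.1 ± 1.89 CPM in IRF2_KO (edgeR adjusted p = 0.209), and a guide can disrupt a gene without lowering its transcript, so this level does not check the labels. The labelled cell type showed Hoxb8 at 127 ± 2.08 and 135 ± 8.95 CPM. Of 10 granule genes, 3 were called higher in IRF2_KO, 3 lower and 4 not called. Elane was 3.23-fold, Camp 1.9-fold and Mpo 1.44-fold lower. Ltf was 2.61-fold, Ngp 1.89-fold and Ctsg 1.1-fold higher, and Prtn3, at 4007 and 4237 CPM, was not called. Of the other progenitor markers, Myb and Kit were present and called lower in IRF2_KO (Kit 9.6-fold). Meis1 had no read and Cd34 and Hoxa9 at most 3 reads in a group. In bulk RNA, fewer cells of a type and less RNA per cell cannot be told apart.

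Of the 6 genes, P2rx7 and P2rx4 were called higher and Gsdmd lower, while Gsdme, Ninj1 and Panx1 were not called. This is 3 of 6, beside 47.2% of all tested genes. Gsdmd was at least 2-fold lower, as were 2.26% of all tested genes, and P2rx7 at least 2-fold higher, as were 4.79% (7.05% in all). The median log2 fold change was 0.23, beside -0.01 over all tested genes.

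Gsdmd (Entrez gene 69146, GRCm38 chromosome 15, 75862144 to 75867408, plus strand) was nearly lost from the IRF2_KO libraries. It stood at 69.3, 74.9 and 79.5 CPM in Parental libraries 1, 2 and 3. In IRF2_KO it stood at 1.95, 2.48 and 2.32 CPM, from 58, 71 and 78 reads. Every IRF2_KO library thus lay far below every Parental one, and the spread within either group was small beside the gap. The log2 fold change was -5.05 (SE 0.09, edgeR adjusted p = 5.59e-18), a 33.1-fold fall. Of all tested genes, 11 had a lower log2 fold change. The reads that remained corresponded to 2.61%, 3.32% and 3.11% of the Parental mean, so transcript of the gene was still detected in each IRF2_KO library. By RPKM the gene passed from a level exceeded by 18.3% of tested genes in Parental to one exceeded by 82.4% in IRF2_KO.

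**Figure D1:**
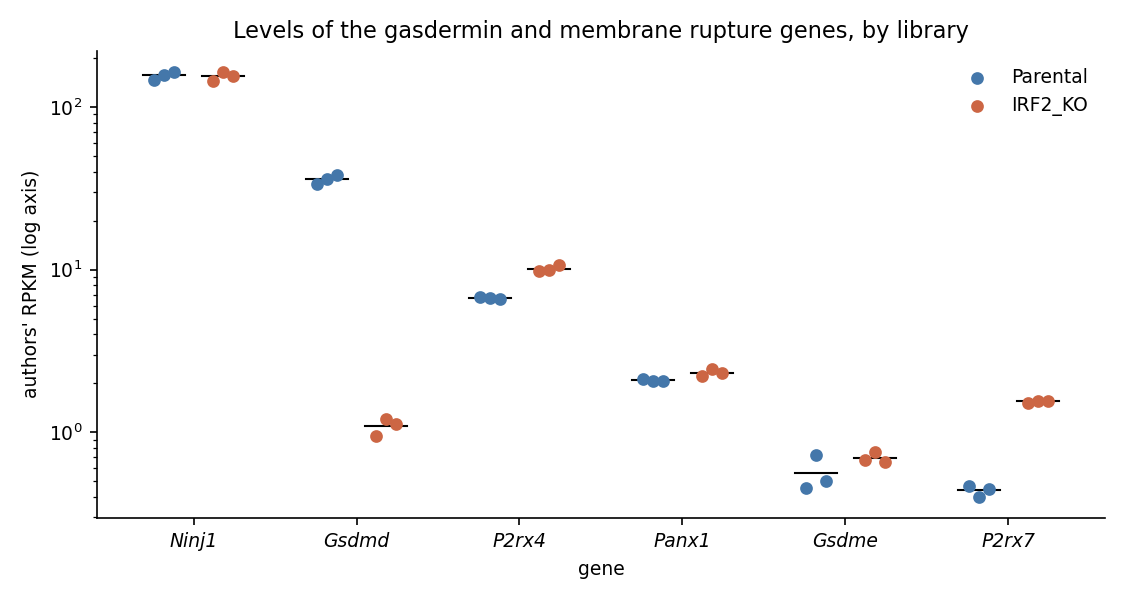
The authors' size-factor-adjusted RPKM (log axis) of each gene in the 3 Parental and 3 IRF2_KO libraries, 1 point per library, with the group mean as a bar. Gsdmd falls from between 33.6 and 38.4 to between 0.942 and 1.21, P2rx7 and P2rx4 rise, and the groups overlap for Ninj1 and Gsdme.

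Gsdme (Entrez gene 54722, chromosome 6, 50207401 to 50263857, minus strand), the other gasdermin gene with reads enough to test, did not fall with it. It was low throughout, at 1.61, 2.58 and 1.79 CPM in Parental and 2.38, 2.65 and 2.32 CPM in IRF2_KO, from 64 to 87 reads per library. The groups overlapped, since Parental 2 lay within the IRF2_KO range. The log2 fold change of 0.31 (SE 0.18) was not called (edgeR adjusted p = 0.173). Without Parental 2 it was 0.52 and was called (edgeR adjusted p = 0.0274, and 0.0274 to 0.486 over 15 alternatives), so this library decides the call. The gene span overlaps that of Mpp6 on the opposite strand in GENCODE M21, with no shared exon bases.

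The balance of the gasdermin transcripts within a library changed accordingly. Gsdmd was 73.5, 49.7 and 76.1 times as abundant as Gsdme by RPKM in the Parental libraries, and 1.4, 1.6 and 1.71 times as abundant in the IRF2_KO libraries. The ratio of Gsdme to Gsdmd was 41.7-fold higher in IRF2_KO, and all 3 IRF2_KO libraries lay above all 3 Parental ones. A two-sided exact permutation test gave p = 0.1, the smallest value that 3 against 3 libraries allow. The sum of the pair fell from 36.6 ± 2.43 to 1.79 ± 0.175 RPKM, and the share of Gsdmd in it from 98.5% ± 0.378 to 61.0% ± 2.45. These sums and shares are descriptions, with no test of their own.

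**Figure D2:**
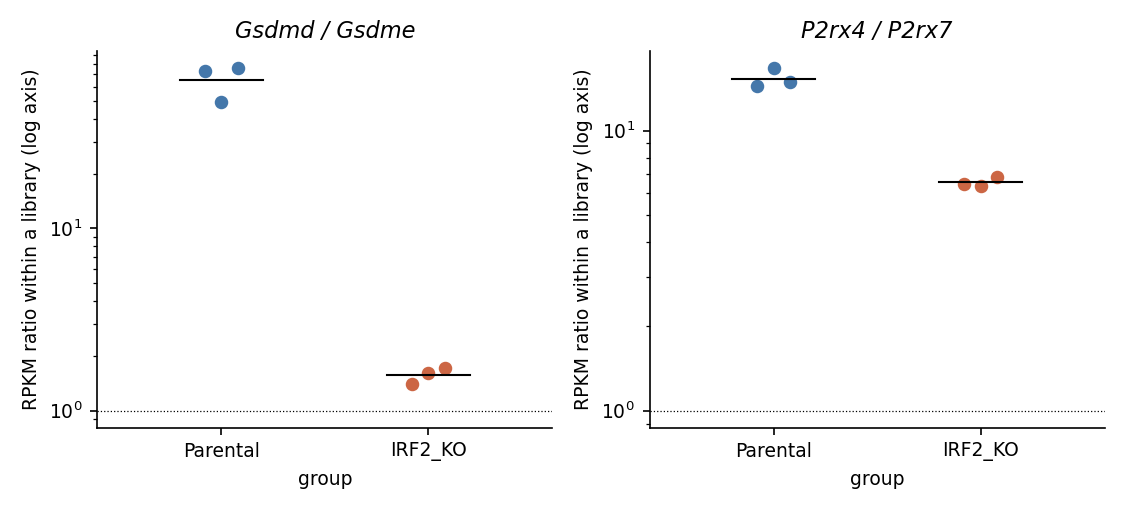
RPKM ratio within each library (log axis) of Gsdmd to Gsdme on the left and of P2rx4 to P2rx7 on the right, with the geometric mean of each group as a bar and a dotted line at equal levels. The gasdermin ratio drops from at least 49.7 in Parental to at most 1.71 in IRF2_KO, while the channel ratio drops from at least 14.4 to at most 6.84.

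The remaining gasdermin genes gave almost no reads in either group. All 8 were too low to test. Gsdma2, Gsdma3, Gsdmc, Gsdmc2 and Gsdmc3 had no read in any library, Gsdma had 1 read and Pjvk, the pejvakin gene of inner ear hair cells, 3 reads in all. Gsdmc4 had 10, 5 and 6 reads in Parental and 2, 2 and 5 in IRF2_KO. The Gsdmc and Gsdma genes are clusters of similar copies, and only reads that aligned uniquely were counted, so their levels are uncertain.

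Ninj1 (Entrez gene 18081, chromosome 13, 49187529 to 49196251, plus strand) was the most abundant of the 6 and moved least. It stood at 170.0, 184 and 192 CPM in Parental and at 169, 188 and 180 CPM in IRF2_KO. The ranges overlapped almost fully, and the log2 fold change was -0.02 (SE 0.05, edgeR adjusted p = 0.732). In Parental its RPKM of 156 ± 9.06 was exceeded by 2.97% of tested genes. Ninj2, the paralog, had no read in any library.

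P2rx7 (Entrez gene 18439, chromosome 5, 122643927 to 122692336) and P2rx4 (Entrez gene 18438, chromosome 5, 122707518 to 122729739) are neighbours on the plus strand, 15.2 kb apart, and both rose. P2rx7 stood at 2.65, 2.29 and 2.54 CPM in Parental and at 8.63, 8.79 and 8.77 CPM in IRF2_KO. The IRF2_KO libraries were closely grouped and all lay above the Parental ones. The log2 fold change was 1.80 (SE 0.11, edgeR adjusted p = 2.07e-10), a 3.49-fold rise. With 1 RPKM added before logs it was 0.82 and still called, a scale that understates changes of low genes. A log2 fold change at least as large as 1.80, in either direction, was seen in 2.82% of tested genes. A short microRNA gene, Mir8115, shares 119 exon bases with P2rx7 on the same strand.

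P2rx4 started from a higher level and rose less. It stood at 14.18, 14.22 and 14.02 CPM in Parental and at 20.6, 20.6 and 22.3 CPM in IRF2_KO, with no overlap. The log2 fold change was 0.58 (SE 0.07, edgeR adjusted p = 1.14e-06), a 1.5-fold rise. In RefSeq the span of P2rx4 overlaps that of Camkk2, while GENCODE M21 places no other gene over P2rx4. Camkk2 had 266 ± 1.83 CPM in Parental and fell by 0.12 on the log2 scale (edgeR adjusted p = 0.0234). Whether strand was used in counting is not given in the sources used here, so reads shared by such genes cannot be told apart. The ratio of P2rx7 to P2rx4 by RPKM was 0.0694, 0.0597 and 0.0672 in Parental and 0.156, 0.158 and 0.146 in IRF2_KO, a 2.35-fold difference in the ratio. The groups did not overlap, and the exact permutation test gave the smallest p it allows, 0.1 (two-sided).

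Markers of macrophages, which carry P2X7, were higher in the same libraries. Of 6 tested markers (of 10 listed), 5 were called higher and none lower, beside 23.6% each way over all tested genes. Their summed level was 306 to 310 CPM in Parental and 713 to 724 CPM in IRF2_KO. Most of that difference was Gpnmb, a lysosomal glycoprotein gene, at 185 ± 2.04 and 535 ± 6.24 CPM. Csf1r, the macrophage growth factor receptor, rose 3.88-fold, Cd68 1.65-fold and Adgre1 and Mrc1 each 1.36-fold, and Mertk was not called, while the complement gene C1qb had no read and C1qa, C1qc and the scavenger receptor gene Marco at most 2 reads in a group. The part of such cells in the P2rx7 and P2rx4 results was not tested.

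The bases upstream of the start sites are shown for these neighbours, which rose together, and for Ninj1, the abundant gene that was not called. They are from RefSeq windows on GRCm38.p6, 5′ to 3′ on the gene's strand, 250 bases that end just before the transcript start. The P2rx4 transcript starts inside the gene's span, so the last bases of its window lie in that span. Capitals mark GC boxes, GGGCGG on either strand, the element bound by SP1.
P2rx7 (chr5:122643677-122643926, plus strand): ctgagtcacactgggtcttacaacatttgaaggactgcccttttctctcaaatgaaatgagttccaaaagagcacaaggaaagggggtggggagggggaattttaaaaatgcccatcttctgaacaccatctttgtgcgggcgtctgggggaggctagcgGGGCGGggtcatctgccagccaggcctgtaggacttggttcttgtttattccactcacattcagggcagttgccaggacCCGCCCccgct
P2rx4 (chr5:122707294-122707543, plus strand): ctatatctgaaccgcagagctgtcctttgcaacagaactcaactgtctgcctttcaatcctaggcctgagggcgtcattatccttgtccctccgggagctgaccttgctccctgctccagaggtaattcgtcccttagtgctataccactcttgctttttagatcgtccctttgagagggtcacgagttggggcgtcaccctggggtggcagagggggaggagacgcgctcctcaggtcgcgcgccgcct
Ninj1 (chr13:49187279-49187528, plus strand): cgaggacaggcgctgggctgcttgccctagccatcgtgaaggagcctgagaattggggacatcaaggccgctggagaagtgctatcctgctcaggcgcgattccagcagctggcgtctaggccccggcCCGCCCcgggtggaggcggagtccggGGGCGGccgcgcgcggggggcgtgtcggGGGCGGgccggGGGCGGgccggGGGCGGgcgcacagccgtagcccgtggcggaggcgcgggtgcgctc
The printed P2rx7 window holds 2 GC boxes, the nearest starting 11 bases before the start, and the Ninj1 window holds 5. The P2rx4 window holds none. A second RefSeq start of P2rx7, whose window is not printed, has none in its 250 bases either. A GC box was present in 32.7% of all 32851 windows of this length. The element TTCNNNGAA, bound by STAT factors, was in none of the windows of the 5 genes that had one (all but Gsdmd), beside 7.02% of all windows.

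The element bound by interferon regulatory factors, which here means GAAA, any 2 bases and GAAA on either strand, was searched in the full windows of 300 bases, from 250 before to 50 after the start. It was absent from the windows of Gsdme, Ninj1, P2rx7, P2rx4 and Panx1, and 3.44% of all windows hold it. Over tested genes with a window, it was present in 8.49% of 212 genes that were called and at least 2-fold lower and in 11.7% of 479 that were called and at least 2-fold higher. Among genes not called it was present in 2.93%. When the first spacer base had to be C, the element was in 1 of 212 genes at least 2-fold lower (0.472%). It was in 22 of 479 at least 2-fold higher (4.59%) and in 36 of 5014 not called (0.718%). A share that rests on 1 gene is too uncertain to rank against that of the genes not called. Windows near the start leave out distal elements, and a match or its absence is a description of letters only.

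The other P2X genes went the opposite way. All 3 that could be tested were called lower, beside 23.6% of all tested genes. P2rx1, an ATP-gated channel of platelets and myeloid cells, stood at 53.1, 56.2 and 55.5 CPM in Parental and 40.5, 42.3 and 42.9 CPM in IRF2_KO (log2 fold change -0.39, SE 0.05, edgeR adjusted p = 5.11e-06). The groups did not overlap. P2rx5 fell from 3.79, 3.06 and 5.22 CPM to 1.95, 1.99 and 1.75 CPM (log2 fold change -1.10, SE 0.18, edgeR adjusted p = 9.39e-05). P2rx3, known from sensory neurons, fell by 0.59 on the log2 scale (SE 0.18, edgeR adjusted p = 0.0128). That call was lost without Parental 3, and the gene shares 51 exon bases with Ssrp1 on the opposite strand. P2rx2 had 15 reads over Parental and 5 over IRF2_KO, and P2rx6 had 1 read in each group.

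By RPKM, P2rx1 was the most abundant P2X gene in both groups, at 21.1 ± 0.581 in Parental and 16.2 ± 0.536 in IRF2_KO. The sum over the 5 tested P2X genes was 29.3, 30.1 and 30.6 RPKM in Parental and 27.8, 28.9 and 29.7 RPKM in IRF2_KO, so that the groups overlapped. IRF2_KO 1 and 2 lay below every Parental library, and IRF2_KO 3 lay above Parental 1. Most of the sum was P2rx1, and P2rx7 added only 0.439 ± 0.0336 RPKM in Parental and 1.55 ± 0.0220 in IRF2_KO. Whether the rises of P2rx7 and P2rx4 balance the falls of P2rx1, P2rx5 and P2rx3 was not tested. Megakaryocyte markers, a lineage that carries P2X1, were mixed, with Gp1bb called higher, Gp9 lower and Pf4 at 3 reads in all. Their summed level was 8.76 to 9.57 CPM in Parental and 19.6 to 22.8 CPM in IRF2_KO. Most of it was Gp1bb alone, at 8.20 ± 0.465 and 20.8 ± 1.63 CPM. Gp9 stood at 0.911 and 0.434 CPM, and Pf4, Itga2b and Ppbp were too low to test. The part of this lineage in the P2rx1 result was not tested.

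Panx1 (Entrez gene 55991, chromosome 9, 15005785 to 15045478, minus strand) stood at 12.5, 12.2 and 12.3 CPM in Parental and 13.1, 14.3 and 13.6 CPM in IRF2_KO. All IRF2_KO libraries were above the Parental ones, as for 54.0% of tested genes in 1 direction or the other. The log2 fold change of 0.15 (SE 0.07) was not called (edgeR adjusted p = 0.108). Panx2 had 4 reads over Parental and 3 over IRF2_KO, and Panx3 none.

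**Figure D3:**
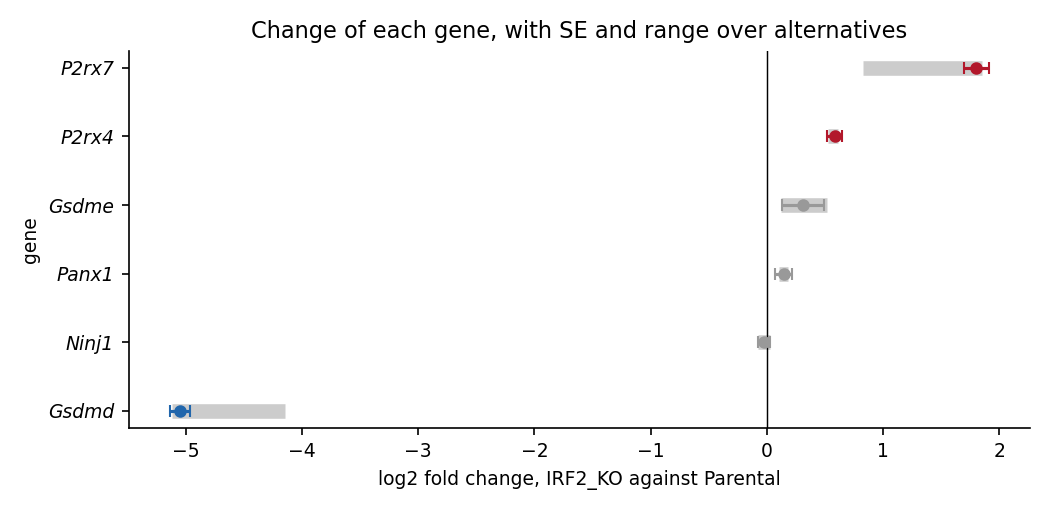
Log2 fold change of each gene in IRF2_KO against Parental (points, with bars for 1 SE), coloured red where called higher, blue where called lower and grey where not called, over the range of 15 alternative analyses (light bands). The lowest absolute values for Gsdmd (-4.15) and P2rx7 (0.82) come from adding 1 RPKM before taking logs, which compresses changes of low genes.

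The order of the genes by RPKM differed between groups. In Parental it was Ninj1, Gsdmd, P2rx4, Panx1, Gsdme and P2rx7, at means of 156, 36.0, 6.71, 2.08, 0.563 and 0.439. The ranges of neighbours in this order did not overlap, except those of Gsdme and P2rx7. In IRF2_KO it was Ninj1, P2rx4, Panx1, P2rx7, Gsdmd and Gsdme, at means of 155, 10.1, 2.32, 1.55, 1.09 and 0.696, and no neighbouring ranges overlapped. Gsdmd passed from the second place to the fifth.

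Upstream of the gasdermins stand inflammasome sensors and their adaptor. Of 9 tested, 4 were called higher and 3 lower, beside 23.6% higher and 23.6% lower of all tested genes, with a median log2 fold change of 0.14. Pycard, which encodes ASC, the adaptor that joins sensors to caspase-1, had the largest change. It fell from 53.8, 54.7 and 59.0 CPM to 13.2, 14.5 and 14.2 CPM (log2 fold change -1.996, SE 0.06, edgeR adjusted p = 2.68e-14). GENCODE M21 places an unclassified transcript, Gm45205, over 485 exon bases of it on the opposite strand. Mefv, the pyrin sensor of altered RhoA activity, fell by 0.40 on the log2 scale. Naip6, a sensor that recognises bacterial flagellin with NLRC4, fell by 0.98, and Naip2, which recognises secretion system rods, rose by 0.38. Naip genes are close paralogs, so how their reads divide is uncertain. Nlrp3, the sensor that P2X7 triggers, was at 2.57 ± 0.120 and 2.63 ± 0.544 CPM (log2 fold change 0.04, edgeR adjusted p = 0.847). The calls for Aim2, the DNA sensor (log2 fold change 0.14), and Nlrc4 (0.25) were each lost in 11 of 15 alternatives. Without Parental 1, 2 or 3, or without IRF2_KO 1 or 3, the number called higher was 2.

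Among the caspases and proteases that cut gasdermins, 5 of 7 tested were called higher and 2 lower, beside 23.6% each way over all tested genes. Casp4, the mouse caspase-11 gene, whose product binds cytosolic lipopolysaccharide and cuts gasdermin D, rose from 16.8, 15.3 and 17.1 CPM to 37.3, 37.8 and 36.1 CPM (log2 fold change 1.17, SE 0.06, edgeR adjusted p = 3.34e-11). The groups were far apart. Casp1, the inflammasome caspase, stood at 22.5 ± 1.6 and 26.1 ± 2.82 CPM (log2 fold change 0.22, edgeR adjusted p = 0.0293), a call lost in 7 of 15 alternatives. Its ranges overlapped, since IRF2_KO 2 lay below Parental 1 and Parental 2. Casp8, which can cut gasdermin D when TAK1 is blocked, rose by 0.31 on the log2 scale. The number called higher was 3 without Parental 2 or without IRF2_KO 3.

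The neutrophil serine proteases that cut gasdermin D were far more abundant. Elane, neutrophil elastase, fell from 2880, 3015 and 3072 CPM to 851, 995 and 927 CPM (log2 fold change -1.69, SE 0.05, edgeR adjusted p = 2.20e-14). Ctsg, cathepsin G, was at 3829 ± 165 and 4195 ± 234 CPM (log2 fold change 0.13, edgeR adjusted p = 0.03), a call lost in 7 of 15 alternatives. Both are also granule markers. Of that list, 3 of 10 were called higher and 3 lower, with a summed level of 11320 to 12320 CPM in Parental and 9392 to 10870 CPM in IRF2_KO. The part of granule-bearing cells in the Elane result was not tested. The granzyme genes Gzma and Gzmb had no read and 3 reads in all.

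Genes that modify or restrain gasdermin D had a median log2 fold change of -0.03. Of 13 tested, 2 were called higher and 3 lower, beside 47.2% called of all tested genes. None of them changed 2-fold, beside 7.05% of all tested genes called with such a change. Serpinb1a, an inhibitor of elastase, cathepsin G and inflammatory caspases, rose from 974 ± 31.8 to 1108 ± 2.25 CPM (log2 fold change 0.19). Of the Ragulator complex, which bears on gasdermin D oligomerisation, Lamtor4 fell by 0.32 on the log2 scale and Lamtor2 rose by 0.25. The palmitoyltransferase genes Zdhhc5 and Zdhhc7 fell by 0.17 and 0.25, and Zdhhc5 shares 246 exon bases with Med19 on the opposite strand.

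The ESCRT machinery, which pinches off damaged membrane and removes gasdermin pores, held no gene with a called 2-fold change. Over all tested genes that share was 7.05%. Of 15 tested genes, 4 were called higher and 1 lower, again beside 47.2%, with a median log2 fold change of 0.03. Chmp1b rose by 0.34 on the log2 scale and Chmp5 by 0.29. Pdcd6ip, the ALIX gene, rose by 0.13, and Pdcd6, the calcium sensor gene that brings ALIX to wounds, fell by 0.13. These last calls were lost without Parental 3 or without IRF2_KO 3, where 2 genes were called higher and 0 lower. Chmp1b shares 605 exon bases with an antisense transcript.

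Cargo that leaves through the pores or after rupture was called higher for 3 of 6 tested genes and lower for 1, beside 23.6% higher and 23.6% lower of all tested genes. Lgals3, galectin 3, rose from 94.2, 100.2 and 103 CPM to 178, 203 and 194 CPM (log2 fold change 0.95, SE 0.05, edgeR adjusted p = 7.86e-11), and Lgals1 rose by 0.36 on the log2 scale. The interleukin genes were near silent. Il1b had 10 reads over each group and was too low to test, Il1a stood at 0.334 and 0.322 CPM, and Il18 rose from 18 to 39 reads over the group (log2 fold change 1.40, SE 0.43, edgeR adjusted p = 0.0121). The Il18 call was lost without IRF2_KO 2. Hmgb1 fell by 0.42, a call lost without Parental 2, Parental 3 or IRF2_KO 1, where the number called lower was 0. At 4.07 CPM in Parental its level is uncertain, since its pseudogenes resemble it and only unique alignments were counted. Macrophage markers, among which galectin 3 is often counted, were higher in the same libraries (5 of 6 tested, beside 23.6% of all tested genes). Their part was not tested.

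Genes that break down extracellular ATP or sense its products were called higher in 4 of 10 tested and lower in 1, beside 47.2% called of all tested genes. Of these, 3 changed 2-fold or more, beside 7.05% of all tested genes. Nt5e, the CD73 ectonucleotidase that turns AMP into adenosine, rose from 3.56, 3.35 and 2.83 CPM to 11.5, 10.3 and 11.0 CPM (log2 fold change 1.76, SE 0.10, edgeR adjusted p = 2.35e-10). Its groups did not overlap. The adenosine receptor genes Adora2b and Adora3 rose by 0.47 and 1.86 on the log2 scale, although Adora3 had 31 and 92 reads per group and shares 779 exon bases with Tmigd3 on the same strand. Entpd2, an ectonucleotidase gene, rose by 1.13 and shares 612 exon bases with Npdc1. P2ry2, the receptor for ATP and UTP, fell from 27.4 ± 0.424 to 18.3 ± 0.746 CPM (log2 fold change -0.58, edgeR adjusted p = 3.94e-07). Entpd1, the CD39 enzyme upstream of CD73, stood at 1.34 ± 0.336 and 1.86 ± 0.456 CPM and was not called (edgeR adjusted p = 0.0886).

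**Figure D4:**
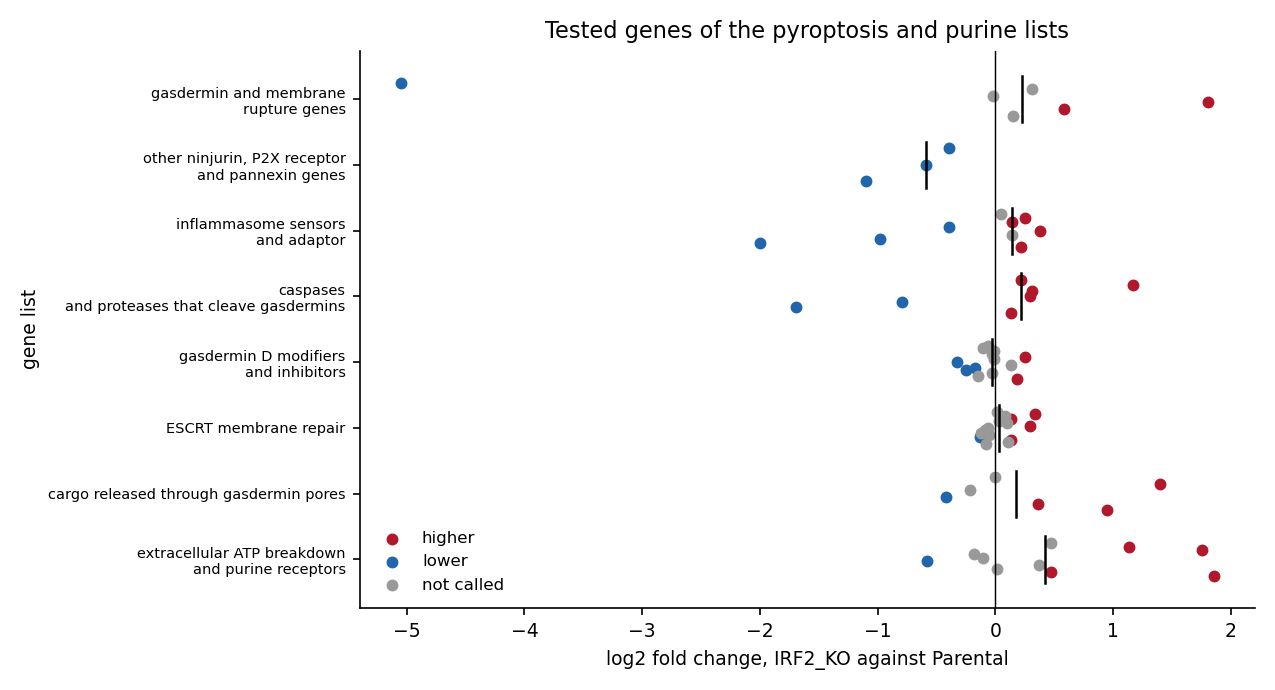
Log2 fold change in IRF2_KO against Parental of every tested gene of the 6 and of the related lists (points, red called higher, blue called lower, grey not called), with the list median as a black bar. Gsdmd stands alone at -5.05, the modifier and ESCRT lists sit close to 0, and the P2X genes outside the 6 are all below 0.

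The genes beside each of the 6 were read to see how far a change extended along the chromosome. Of 30 distinct neighbours, the 3 nearest protein-coding genes on either side, 21 could be tested, 8 were called higher and 4 lower, beside 47.2% of all tested genes. Around Gsdmd, Zc3h3, 20.1 kb away, was not called (log2 fold change 0.04), Mroh6, 14.5 kb away, rose by 0.57 on the log2 scale and Eef1d, a translation elongation factor gene, fell by 0.26. Naprt stood at 0.596 and 0.355 CPM (edgeR adjusted p = 0.0847). The log2 fold change of -5.05 at Gsdmd was thus far from that of any tested neighbour. Around Gsdme, 3 of 4 tested neighbours were called higher, beside 23.6% of all tested genes. These were Mpp6, Osbpl3 and 4921507P07Rik (log2 fold changes 0.23, 0.85 and 0.78), while Cycs was not called. Around Ninj1, 1 of 5 tested was called higher, and around Panx1, 1 of 2 was higher and 1 lower. Ift81, 29.4 kb before P2rx7, rose by 1.48 on the log2 scale (SE 0.36, edgeR adjusted p = 0.00253), from 29 to 66 reads over the group. On the same side of P2rx7 as Ift81, Atp2a2 fell by 0.20, from 607 ± 6.35 to 527 ± 1.92 CPM (edgeR adjusted p = 0.000234). Anapc7, also on that side, was not called (log2 fold change -0.085, edgeR adjusted p = 0.181). Beyond P2rx4, Camkk2 fell by 0.12 and Anapc5 had a log2 fold change of 0.05 (edgeR adjusted p = 0.333). Rnf34, further on that side, rose by 0.27 (edgeR adjusted p = 0.000395).

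**Figure D5:**
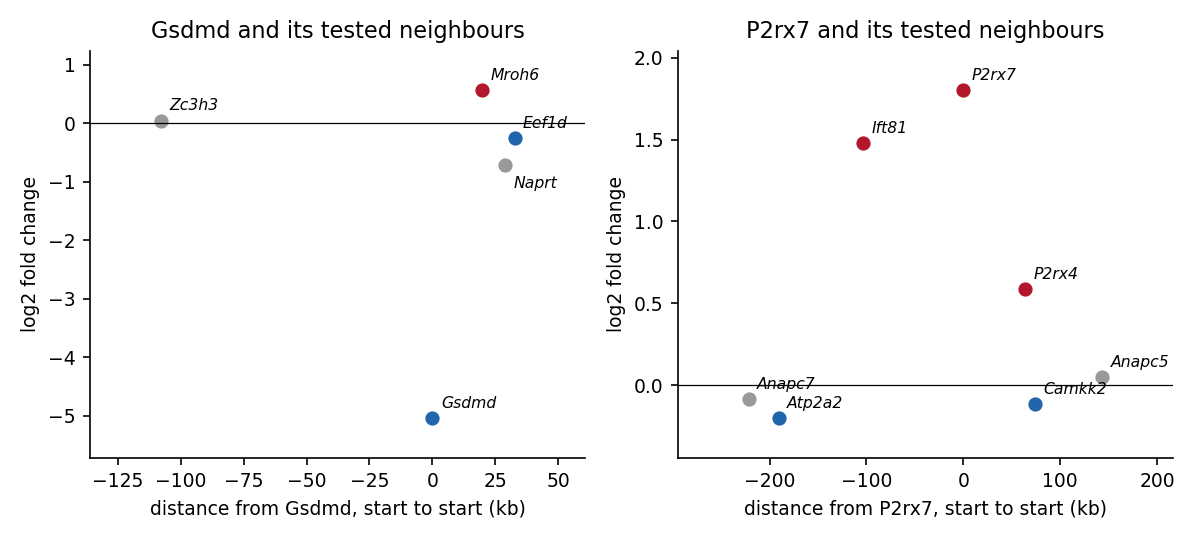
Log2 fold change in IRF2_KO against Parental of Gsdmd (left) and P2rx7 (right) and of their tested neighbours among the 3 nearest protein-coding genes on either side, against the distance between gene starts in kb (red called higher, blue called lower, grey not called). Gsdmd at -5.05 lies apart from neighbours between -0.72 and 0.57. P2rx7 at 1.80 has Ift81 at 1.48 and P2rx4 at 0.58 beside it, and its other tested neighbours lie between -0.20 and 0.05.

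For the genes that changed 2-fold or more, the most similar patterns were sought over the 6 libraries, as the Euclidean distance between log2 CPM centred on each gene's mean, among 11844 tested genes whose mean over all 6 libraries was at least 1 CPM. Closest to Gsdmd were Akap2, an anchoring protein gene for protein kinase A (distance 0.25), Apobec3, a cytidine deaminase gene (0.35), and Cpq, a carboxypeptidase gene (0.52). Akap2 stood at 7.60, 8.01 and 7.33 CPM in Parental and 0.202, 0.279 and 0.238 CPM in IRF2_KO. Closest to P2rx7 were Spaca9 (0.10), Mocos, a molybdenum cofactor sulfurase gene (0.11), and Ncoa7, a nuclear receptor coactivator gene (0.15). Ncoa7 stood at 43.8 ± 3.44 and 150.2 ± 3.84 CPM. With 2 groups, this measure mostly finds genes of the same fold change, and it is a description.

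Markers of lymphoid and erythroid cells were near absent. Summed levels of T and NK cell markers were at most 0.101 CPM, with Cd3e at 0, those of B cell markers at most 0.803 CPM, with Ms4a1 and Pax5 at 0, and those of erythroid markers at most 1.32 CPM, with both Hba genes at 0. Stromal markers summed to at most 2.05 CPM, and the 1 that could be tested was called higher. Mast cell and basophil markers summed to 13.2 to 13.8 CPM in Parental and 12.4 to 13.1 CPM in IRF2_KO, with Cpa3, Fcer1a and Prss34 at 0 and no call. Dendritic cell markers had Zbtb46 and Clec9a called higher and Flt3 lower, with Siglech and Cd209a at 0 and summed levels of 17.8 to 19.6 and 12.7 to 14.4 CPM. Of the progenitor markers, Kit, the stem cell factor receptor gene, fell 9.6-fold, from 8.04 ± 0.145 to 0.827 ± 0.181 CPM, and Myb fell 1.36-fold, from 644 ± 2.87 to 474 ± 9.57 CPM. Their summed level, mostly Myb, was 776 to 781 CPM in Parental and 593 to 630 CPM in IRF2_KO. The part of any of these cell types in the Gsdmd result was not tested.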

How the data were processed

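RNA of 3 Parental and 3 IRF2_KO libraries was sequenced. Groups follow the group label, and replicates are numbered in record order and pair nothing. Per the labels' protocols, a stranded total RNA kit was used, while the molecule label names polyadenylated RNA. The submitters' processing notes name GSNAP and the GRCm38 build. The aligner version and annotation were not given in the sources used here. The deposited counts are reads that aligned uniquely to each gene model, per the file headers, and the deposited RPKM are size-factor-adjusted. RPKM equalled the count times 1 factor per gene and 1 factor per library over 10995 genes.

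Symbols came from RefSeq GRCm38.p6 for 31049 of 36528 IDs and from GENCODE M21 for 78. Of 163 list genes, 161 were matched. Counts were fitted in edgeR 4.0.16 (R 4.3.3) with filterByExpr, TMM factors and a robust quasi-likelihood fit (two-sided F-test), Benjamini-Hochberg adjusted over 13353 genes. The SE is the log2 fold change over the square root of F. A floor of 3 counts is 0.0751 to 0.103 CPM per library and covers counting error only. The fit was tested on simulated data.

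Members and lists were chosen with earlier results of these data known. Named were the 6 genes and Irf2, up to 4 genes per list with the smallest adjusted p, low family members, neighbours changed 2-fold and the 3 closest patterns (log2 of CPM plus 0.01). Other genes, among them Nlrp3, Aim2, Nlrc4, Casp1, Ctsg, Il1a, Il1b, Entpd1, Entpd2, Zdhhc7 and the remaining neighbours, were named after their values were seen, and the GC box and STAT elements were added then. Some list genes are counted but not reported here by name. Alternatives were DESeq2 1.42.0, limma-voom (limma 3.58.1), scaling by RLE, by the upper quartile or by library size alone, a filter at 1 CPM in 3 libraries or none, limma on log2(RPKM + 0.1) and log2(RPKM + 1), and each library left out.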

Additional observations from a re-analysis of the deposited data

How the results depend on the processing

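Over 15 alternatives the calls of Gsdmd, P2rx7 and P2rx4 and the lack of a call for Ninj1 and Panx1 held. Ninj1, which was not called, had a log2 fold change of 0.013 without Parental 3 and 0.025 without IRF2_KO 1, and lay between -0.072 and 0.025 when 1 library was left out. Gsdme lay between 0.18 and 0.52 in the same runs and was called without Parental 2. With 0.1 RPKM added, the log2 difference of the P2rx7 to P2rx4 ratio was 1.03 in place of 1.23, since that constant is large beside P2rx7. Inflammasome genes called higher numbered 2 in place of 4 by library size alone, DESeq2, no filter and both RPKM fits, and 2 to 3 when 1 library was left out. Caspase and protease genes called higher numbered 3 in place of 5 by library size alone and both RPKM fits, and 3 to 4 with 1 library left out. ESCRT genes called lower numbered 3 by library size alone, and with 1 library left out 2 to 6 were higher and 0 to 1 lower. Cargo genes called lower numbered 0 to 1 with 1 library left out, and purine genes called lower numbered 2 with no filter. For these counts the cause was not tested. The interferon regulatory factor element was in 0.685% of windows when its first spacer base had to be C, and in 8.56% without its last base, since these letters are stricter and looser. No paired analysis was possible because the labels carry no replicate numbers. Depth limits Gsdme, at 64 to 87 reads per library, and the genes too low to test.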
